A study of Mus musculus with 8 samples.

Results

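Kupffer cell and infiltrating macrophage markers are 40 genes, listed by name, that mark the resident macrophages of the liver, macrophages in general, or monocytes and the macrophages that arise from them. A member was measured by the probe whose single gene symbol in the array annotation was that of the listed gene, and where a gene has several such probes the one with the highest mean over the 8 arrays is kept. This gave 39 members among the 19938 genes with such a probe, each with 1 probe. Slc11a1 is named only. For the text the members were put into 5 groups by what the genes are known for, with earlier results of these data known. These are 8 resident Kupffer cell genes, 20 measured genes common to macrophages and other myeloid cells, 7 genes of monocyte-derived or infiltrating macrophages, the 2 calgranulins S100a8 and S100a9, and 2 genes that are not restricted to macrophages (Hmox2 and Il18bp).

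The samples are liver pieces from M24, M48, M50 and M60, which were male mice of the strain C57BL/6J. Each mouse received an adeno-associated virus (AAV) vector when 2 to 3 months old and was necropsied 18 months afterwards. From each, a tumor labelled hepatocellular carcinoma and the liver next to it were dissected, so that there are 4 tumors and 4 adjacent livers, with 1 array per piece. All 4 mice carried the vector, the adjacent livers included; the labels used here do not say what the vector encoded, and livers of mice without vector were not analysed here. Levels are log2 values of 1 probe per gene and show no order between genes. Differences are tumor minus adjacent liver of the same mouse in log2 units, with the mean over n = 4 pairs. The words rose and fell are kept for genes with a Benjamini-Hochberg adjusted p under 0.05 in the paired limma fit over all 11963 tested genes. Of these genes 31.9% passed, 16.3% as higher and 15.7% as lower in tumors.

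Kupffer cells are macrophages that live in the liver sinusoids, where they take up bacteria, aged red cells and lipoproteins from the blood. Most are seeded before birth and renew themselves in place, and they carry surface proteins such as Clec4f, Vsig4 and Timd4 that other macrophages lack or have at low levels. When liver is injured or a tumor grows, blood monocytes that carry the chemokine receptor Ccr2 can enter, turn into macrophages and, with time, take on part of the Kupffer cell program. In RNA from whole tissue, fewer cells of a type and less RNA of a gene per cell cannot be told apart.

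One animal stood apart from the others before any comparison of tissues. In the adjacent livers M48 had the highest level of 36 of the 39 members and in the tumors again of 36, and the lowest of 0 in either tissue. Among adjacent livers M50 had the lowest level of 29 members and M60 of the other 10. The levels of a member ranged over a median of 1.64 log2 units across the 4 adjacent livers and of 1.13 across the 4 tumors. The range across adjacent livers was larger than the mean difference between tissues for 36 of 39 members, and for 35 of 39 it was larger than the range across tumors. The tissue comparison was therefore made within each mouse, and values with no replicate block (the mouse left out of the fit) and without single mice are given beside the calls they change. Of 7 tested hepatocyte markers Apoa1 rose (0.32) and Hnf4a fell (-0.35). Their mean level ran from 13.14 to 13.28 in adjacent livers and from 13.07 to 13.26 in tumors, and albumin (Alb) differed by 0.11 (SE 0.095).

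**Figure D1:**
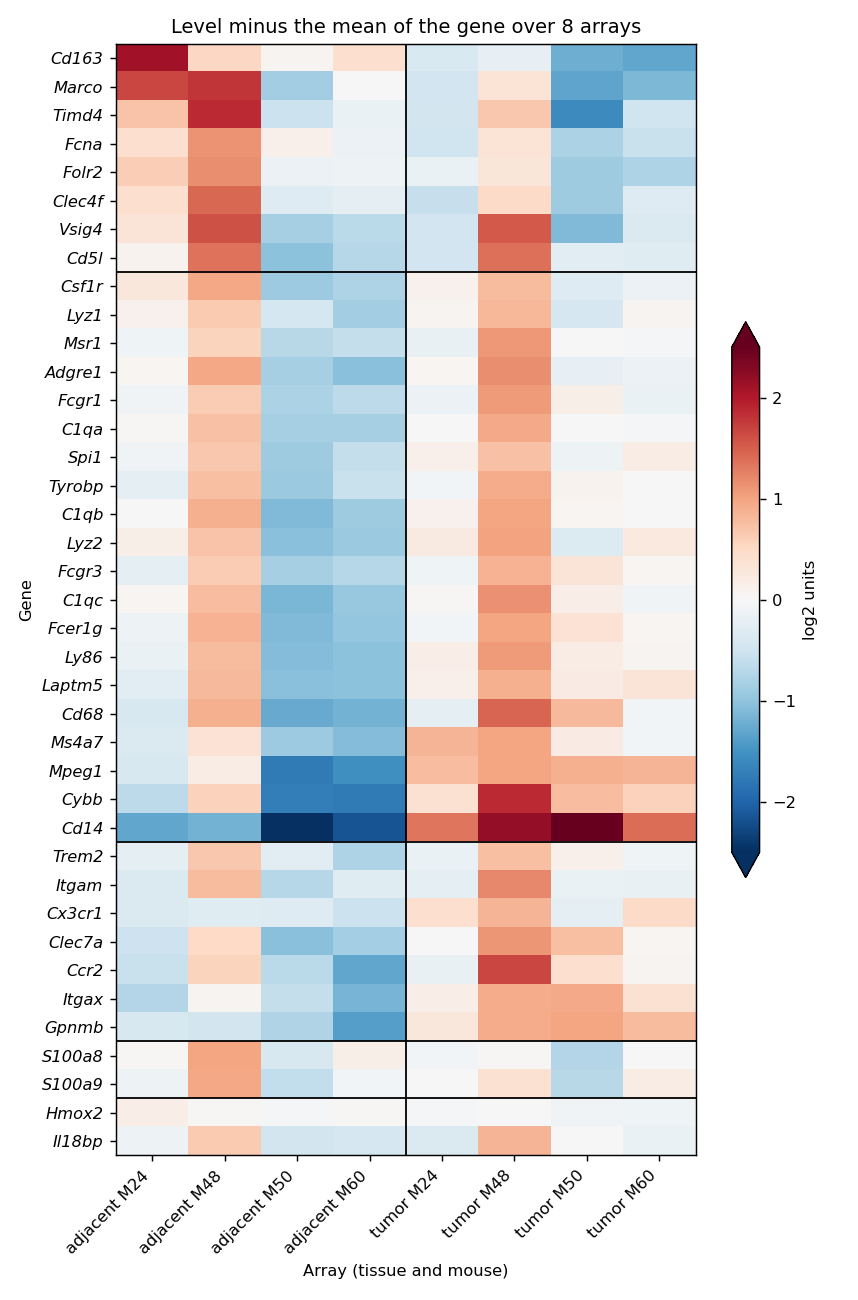
Level of each of the 39 measured members on each of the 8 arrays, minus the mean of that gene over the arrays (log2 units, colour), with adjacent livers left and tumors right of the vertical line and the marker groups separated by horizontal lines. M48 is high in both tissues for most genes, 6 of the 8 resident genes at the top are lower in the tumor of each mouse, Vsig4 and Cd5l go both ways, and Cd14, Cybb and Mpeg1 are higher in all 4 tumors than in the adjacent liver of the same mouse.

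The resident Kupffer cell genes were lower in the tumors. Of 8 tested genes 6 fell and 0 rose, against 15.7% of all tested genes that fell. Of all 11963 tested genes 3023 were lower in the tumor of each of the 4 mice, and so were these 6. They were the haemoglobin scavenger receptor Cd163, the class A scavenger receptor Marco, the phosphatidylserine receptor Timd4, the ficolin Fcna, the folate receptor Folr2 and the C-type lectin Clec4f. The remaining pair, Vsig4 and Cd5l, did not pass. The median difference over the 8 genes was -0.76, while that over all tested genes was near 0 (0.0008).

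Cd163 had the largest fall of the group. Its levels were 7.21, 5.64, 5.20 and 5.55 in the adjacent livers of M24, M48, M50 and M60 and 4.74, 4.92, 3.90 and 3.82 in their tumors, in that order of mice. No tumor reached the lowest adjacent liver, a separation that 15.6% of all tested genes showed in the same direction. Cd163 fell by 1.56 (SE 0.263, adjusted p = 0.00613), or 2.94-fold. In M50 and M60 the tumor level lay under 4.597, the value below which genes were left out of the test, so the size of the fall there is uncertain.

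Marco, which binds bacteria and particles, stood at 7.98, 8.08, 5.42 and 6.30 in adjacent livers and at 5.82, 6.65, 4.98 and 5.17 in tumors of the same order. M24 and M48 had the high adjacent levels, and the tumors of these mice overlapped the adjacent livers of the other two. Marco fell by 1.29 (SE 0.254, adjusted p = 0.0103), by as much as 2.16 in M24 and as little as 0.44 in M50. Timd4, a receptor for dying cells that long-lived resident macrophages carry, stood at 6.52, 7.67, 5.27 and 5.64 in adjacent livers against 5.35, 6.48, 4.21 and 5.30 in tumors. It was lower by 1.06 to 1.19 in M24, M48 and M50 and by 0.33 in M60, with a mean fall of 0.94 (SE 0.161, adjusted p = 0.00644). The tumor of M50 lay under 4.597 here too.

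Folr2 had the most even change of the group. Its levels were 7.18, 7.74, 6.42 and 6.44 in adjacent livers and 6.39, 6.87, 5.67 and 5.80 in tumors, and the 4 differences lay between -0.86 and -0.64. It fell by 0.76 (SE 0.0884, adjusted p = 0.00173). Fcna, a secreted lectin that starts the lectin pathway of complement, stood at 7.81, 8.51, 7.53 and 7.26 in adjacent livers and at 6.89, 7.73, 6.595 and 6.83 in tumors. It was lower in every pair although the highest tumor, that of M48, exceeded the adjacent livers of M50 and M60, and it fell by 0.77 (SE 0.112, adjusted p = 0.00361).

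Clec4f, a lectin found in mouse on Kupffer cells and hardly elsewhere, had a smaller fall that depended on the mice used. It stood at 9.001, 10.01, 8.26 and 8.36 in adjacent livers and at 8.01, 9.06, 7.70 and 8.27 in tumors. The drop was 0.99 in M24 and 0.95 in M48 but 0.09 in M60, and the mean fall of 0.65 (SE 0.159) had an adjusted p = 0.0225. Its adjusted p was 0.0894 without M24, 0.0649 without M48 and 0.0647 without M50. The other 5 genes that fell passed without any 1 mouse.

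Vsig4 and Cd5l did not pass, and their differences varied in direction between mice. Vsig4, the complement receptor of Kupffer cells that binds C3 fragments, stood at 9.31, 10.58, 8.15 and 8.31 in adjacent livers and at 8.52, 10.53, 7.88 and 8.63 in tumors. Its difference was -0.20 (95% interval -0.61 to 0.21, adjusted p = 0.426), with 3 mice lower and M60 higher. Cd5l, a secreted scavenger protein made by tissue macrophages, stood at 9.42, 10.69, 8.31 and 8.61 against 8.85, 10.70, 9.04 and 9.02. It differed by 0.15 (95% interval -0.34 to 0.63, adjusted p = 0.621) and was higher in 3 tumors and lower in that of M24. Without M50 the difference was -0.049.

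With no replicate block the resident calls mostly went, since the mice differed so much in level. Cd163 alone then passed (adjusted p = 0.0265), and the adjusted p-values of Fcna, Folr2, Marco, Timd4 and Clec4f were 0.0926, 0.139, 0.151, 0.262 and 0.27.

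**Figure D2:**
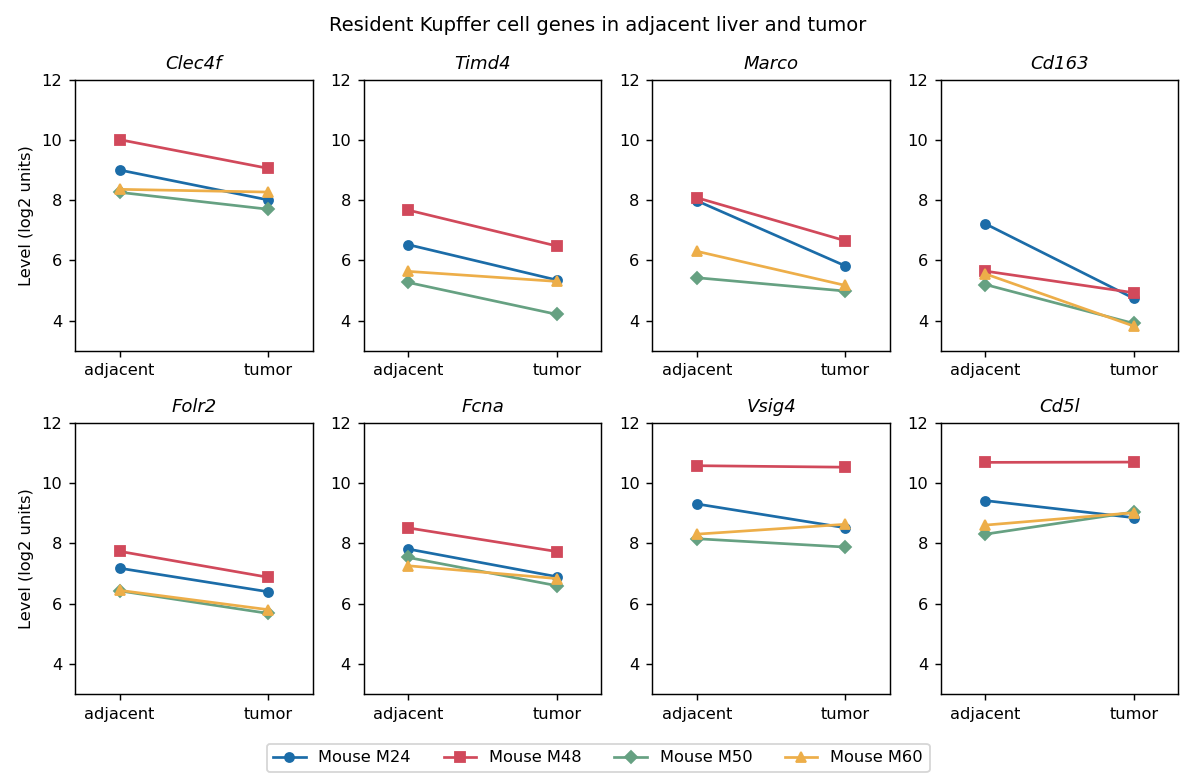
Levels of the 8 resident Kupffer cell genes (log2 units) in adjacent liver and tumor, with 1 line per mouse. The lines of Cd163, Marco, Timd4, Folr2, Fcna and Clec4f go down in all 4 mice, while those of Vsig4 and Cd5l go both ways, and M48 is the highest in 7 of 8 adjacent livers.

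The start regions of Marco and Fcna are shown as the only ones among the 6 resident genes that fell to hold the letters that the macrophage factor PU.1, encoded by the member Spi1, is known to prefer. Those of Cd163, Timd4, Folr2 and Clec4f hold none. Each is the run of 250 bases before the start of the gene, 5′ to 3′ on the strand of the gene, from RefSeq with build GRCm38.p6. Capitals mark GAGGAA or its reverse complement TTCCTC.
Marco, chr1:120505025-120505274, minus strand: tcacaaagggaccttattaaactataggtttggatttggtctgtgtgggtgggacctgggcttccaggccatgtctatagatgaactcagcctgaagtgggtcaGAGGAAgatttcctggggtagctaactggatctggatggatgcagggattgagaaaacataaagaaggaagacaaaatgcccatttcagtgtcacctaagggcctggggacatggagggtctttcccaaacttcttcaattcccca
Fcna, chr2:25627975-25628224, minus strand: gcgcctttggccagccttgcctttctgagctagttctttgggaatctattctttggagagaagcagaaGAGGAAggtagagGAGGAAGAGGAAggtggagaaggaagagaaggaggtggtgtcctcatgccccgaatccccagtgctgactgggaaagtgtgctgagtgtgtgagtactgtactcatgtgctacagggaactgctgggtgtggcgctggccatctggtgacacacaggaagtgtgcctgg
Marco has 1 such match and Fcna has 3, of which a pair lies end to end. In the table of start regions, 38 entries belonged to 32 members, and 16 of these entries (42.1%) held GAGGAA on either strand, against 23.3% of all 32851 entries in windows of the same length. The matches were in 4 of 9 entries of resident genes, 7 of 15 of common genes and 4 of 8 of monocyte-derived genes, some of which are overlapping starts of 1 gene. By outcome they were in 2 of 7 entries of members that fell, 4 of 11 of members that rose and 10 of 18 of members that did not pass. The E-box CACGTG was in 0 of the 38 entries and in 6.02% of all. These are counts of letters, and binding was not measured.

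Genes of monocyte-derived macrophages moved the opposite way. Of 7 tested genes 5 rose and 0 fell, where 16.3% of all tested genes rose. All 7 were higher in the tumor of each mouse, as were 2947 of all 11963 tested genes. The 5 were Gpnmb, Itgax, Ccr2, Clec7a and Cx3cr1, while Itgam and Trem2 did not pass. The median difference was 0.95. Without M60 the count of genes that rose was 3, as it was with no replicate block.

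Gpnmb, a glycoprotein of the lysosome and cell surface found in lipid-laden and tumor macrophages, had the largest rise of the group. It stood at 6.05, 5.99, 5.70 and 5.07 in adjacent livers and at 6.74, 7.38, 7.44 and 7.24 in tumors. All 4 tumors lay above all adjacent livers, as was the case for 14.9% of all tested genes. Gpnmb rose by 1.49 (SE 0.226, adjusted p = 0.00412), or 2.82-fold. Itgax, the CD11c integrin chain of dendritic cells and some macrophages, stood at 5.32, 6.12, 5.46 and 4.89 in adjacent livers against 6.23, 6.99, 6.997 and 6.44 in tumors. The groups did not overlap, and it rose by 1.21 (SE 0.153, adjusted p = 0.002265) with differences from 0.86 to 1.54.

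Ccr2, the receptor by which inflammatory monocytes follow Ccl2, stood at 4.61, 5.72, 4.50 and 3.86 in adjacent livers and at 4.99, 6.84, 5.58 and 5.24 in tumors. M48 was high in both tissues, so the groups overlapped although each pair went up. Ccr2 rose by 0.99 (SE 0.168, adjusted p = 0.00615). The adjacent values of M50 and M60 lay under 4.597, and with no replicate block the adjusted p was 0.144. Cx3cr1, the fractalkine receptor of patrolling monocytes and some tissue macrophages, stood at 5.64, 5.70, 5.68 and 5.47 in adjacent livers and at 6.42, 6.85, 5.75 and 6.49 in tumors. Here the adjacent livers were alike, M48 included, and M50 changed by only 0.07 while the other mice rose by 0.77 to 1.14. Its mean rise was 0.75 (SE 0.182, adjusted p = 0.0217), and the adjusted p was 0.0756 without M24, 0.0631 without M48 and 0.0842 without M60.

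Clec7a, the beta-glucan receptor Dectin-1, stood at 5.93, 6.94, 5.40 and 5.58 in adjacent livers and at 6.43, 7.55, 7.19 and 6.49 in tumors. M50 had the largest step, 1.79, and the other mice had 0.50 to 0.91. Clec7a rose by 0.95 (SE 0.213, adjusted p = 0.0164), with an adjusted p = 0.0533 without M60 and 0.0817 with no replicate block. Its start region is shown as that of a monocyte-derived gene that rose and holds the same 6 letters, in capitals.
Clec7a, chr6:129472780-129473029, minus strand: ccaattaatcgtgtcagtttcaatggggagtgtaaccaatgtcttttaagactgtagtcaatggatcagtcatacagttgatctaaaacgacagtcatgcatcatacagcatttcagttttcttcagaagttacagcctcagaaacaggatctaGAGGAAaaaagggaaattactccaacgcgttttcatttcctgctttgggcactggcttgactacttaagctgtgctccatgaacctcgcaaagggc
The match lies 96 bases before the start. The windows of Gpnmb, Itgax, Ccr2 and Cx3cr1 hold none, which says only that these letters are not there.

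Itgam, the CD11b integrin chain of monocytes, macrophages and neutrophils, stood at 5.22, 6.37, 4.87 and 5.28 in adjacent livers and at 5.35, 6.78, 5.43 and 5.40 in tumors. Its difference was 0.30 (95% interval 0.04 to 0.57, adjusted p = 0.0814). Trem2, a lipid-sensing receptor of macrophages, stood at 5.47, 6.39, 5.45 and 4.93 against 5.53, 6.46, 5.84 and 5.60. The difference of 0.30 (95% interval -0.01 to 0.61) had an adjusted p = 0.126, and in M24 and M48 it was only 0.07. Trem2 and Gpnmb are often named together as markers of lipid-associated macrophages, and in these tumors the rise of Gpnmb was 1.49 and the difference of Trem2 0.30. These 2 differences were not tested against each other.

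**Figure D3:**
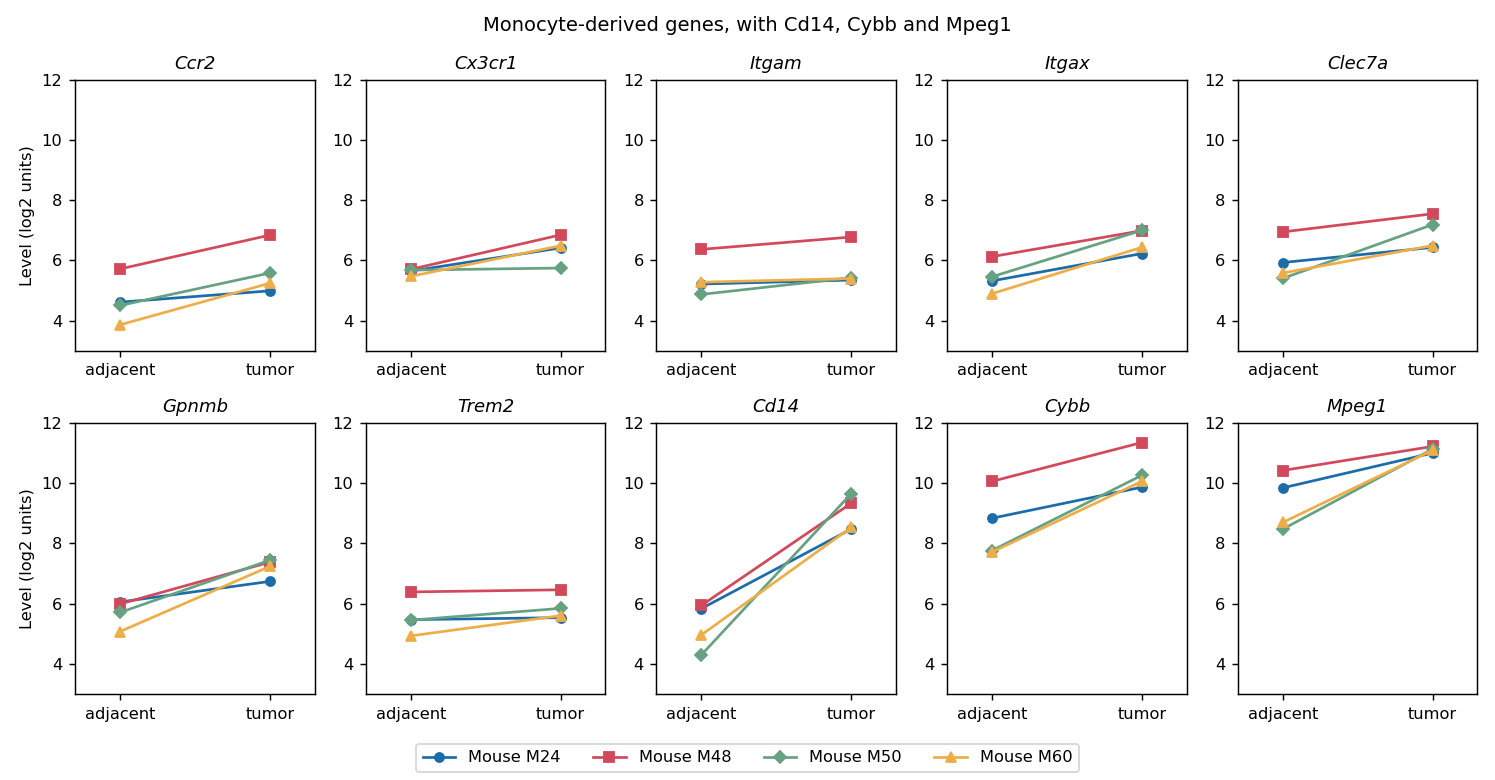
Levels (log2 units) of the 7 monocyte-derived genes and of Cd14, Cybb and Mpeg1 in adjacent liver and tumor, with 1 line per mouse. All lines go up, with the steepest in Cd14 and nearly flat ones in Trem2 and Itgam, and the 4 tumors of Mpeg1 meet near 11.

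Among the genes common to macrophages, 3 changed far more than the rest. Of 19 tested genes 6 rose and 0 fell, where 16.3% of all tested genes rose and 15.7% fell. All 20 measured genes had a positive mean difference, with a median of 0.57. The endotoxin co-receptor Cd14, the NADPH oxidase subunit Cybb and the pore-forming protein Mpeg1 rose by 3.74, 1.79 and 1.75. Of the 16 other tested genes none differed by as much as 1, and Ly86, Laptm5 and Cd68 passed.

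Cd14 presents bacterial lipopolysaccharide to the receptor Tlr4 and can be made by hepatocytes as well as by macrophages. It stood at 5.83, 5.94, 4.30 and 4.96 in adjacent livers and at 8.48, 9.33, 9.65 and 8.53 in tumors. The lowest tumor was far above the highest adjacent liver, and each mouse rose by at least 2.64. Cd14 rose by 3.74 (SE 0.394, adjusted p = 0.00122), or 13.4-fold. The adjacent level of M50 lay under 4.597, so its difference of 5.36 is the least certain of the 4. M50 had the highest Cd14 of the tumors, whereas M48 had the highest level of most other members.

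Cybb, the catalytic subunit with which phagocytes make superoxide, stood at 8.84, 10.06, 7.76 and 7.72 in adjacent livers and at 9.87, 11.35, 10.26 and 10.06 in tumors. The groups overlapped through the adjacent liver of M48. Cybb rose by 1.79 (SE 0.258, adjusted p = 0.00344), from 1.03 in M24 to 2.496 in M50. Mpeg1 (perforin-2), which acts against bacteria taken up by macrophages, stood at 9.84, 10.42, 8.47 and 8.69 in adjacent livers and at 11, 11.22, 11.13 and 11.09 in tumors. The 4 tumors were nearly equal (SD 0.0874) where the adjacent livers were spread (SD 0.928), and the groups did not overlap. Mpeg1 rose by 1.75 (SE 0.315, adjusted p = 0.00757), by 0.80 in M48 and by 2.66 in M50.

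Cd68, Laptm5 and Ly86 rose by less and were less stable. The lysosomal glycoprotein Cd68 stood at 7.996, 9.28, 7.14 and 7.21 in adjacent livers and at 8.15, 9.86, 9.21 and 8.33 in tumors, with a mean rise of 0.98 (SE 0.286, adjusted p = 0.0405). M50 rose by 2.07 and M24 by 0.16, and the adjusted p was 0.0536 without M48, 0.0735 without M50 and 0.12 without M60. Laptm5, a lysosomal membrane protein of blood cells, stood at 8.66, 9.74, 7.90 and 7.91 in adjacent livers against 9.06, 9.84, 9.15 and 9.26 in tumors. It rose by 0.77 (SE 0.222, adjusted p = 0.0379), and its adjusted p was 0.0644 without M24, 0.137 without M50 and 0.129 without M60. Ly86, the MD-1 partner of the receptor RP105, stood at 7.64, 8.59, 6.73 and 6.78 in adjacent livers against 7.97, 8.86, 7.98 and 7.88 in tumors. It rose by 0.74 (SE 0.187, adjusted p = 0.0253), with an adjusted p = 0.0864 without M50 and 0.096 without M60. With no replicate block these 3 genes had adjusted p-values of 0.169 to 0.21. All 3 were thus higher in each tumor by steps that were small in M24 and M48 and larger in M50 and M60.

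The start region of Laptm5 is shown as that of a common gene that rose, with TTCCTC in capitals.
Laptm5, chr4:130913066-130913315, plus strand: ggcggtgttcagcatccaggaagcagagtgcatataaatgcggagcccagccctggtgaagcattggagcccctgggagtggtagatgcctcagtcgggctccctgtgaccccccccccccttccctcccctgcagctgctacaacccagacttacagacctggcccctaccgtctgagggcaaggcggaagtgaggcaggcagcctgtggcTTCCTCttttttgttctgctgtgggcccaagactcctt
Here the match is on the strand opposite to the gene and begins 38 bases before the start.

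The 3 chains of C1q, which begin the classical complement pathway and in liver come mainly from Kupffer cells and other macrophages, behaved as 1 group. They are encoded side by side. C1qa stood at 9.17, 9.86, 8.30 and 8.30 in adjacent livers and at 9.15, 10.09, 9.13 and 9.09 in tumors. Except for M48, the tumors were within 0.1 of each other, and the differences between mice lay on the adjacent side. C1qa, C1qb and C1qc differed by 0.45, 0.56 and 0.63 with adjusted p-values of 0.0712, 0.07365 and 0.05905. C1qa and C1qc passed without M24 (0.0414 and 0.033) and C1qb without M48 (0.0463).

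The adaptor proteins and Fc receptors also had positive mean differences, which were uneven between mice. Those of Fcer1g were 0.06 and 0.11 in M24 and M48 and 1.47 and 1.03 in M50 and M60, and Fcgr1 was lower by 0.06 in M24. Tyrobp (DAP12) and Fcer1g (the Fc receptor gamma chain), which pass signals from receptors such as Trem2 and the Fc receptors through their ITAM motifs, differed by 0.49 and 0.67 (adjusted p = 0.0567 and 0.0833). Fcgr1 and Fcgr3, the activating receptors for IgG, differed by 0.45 and 0.57 (adjusted p = 0.0752 and 0.0531), and passed without M24 at 0.0349 and 0.0498. Fcgr3 has a close relative in Fcgr2b, whose transcript the probe may partly share. Spi1, which encodes the macrophage and granulocyte factor PU.1, differed by 0.46 (adjusted p = 0.0595, and 0.033 without M48).

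The receptors that define macrophages gave similar values. Adgre1, the F4/80 antigen, stood at 7.72, 8.64, 6.84 and 6.63 in adjacent livers and at 7.72, 8.84, 7.48 and 7.52 in tumors, with nearly equal levels in M24. Its mean difference was 0.43 (95% interval 0.06 to 0.80, adjusted p = 0.0794). Csf1r, the receptor for the growth factor on which Kupffer cells depend, had the smallest difference of the group, 0.22 (95% interval -0.19 to 0.62, adjusted p = 0.381). It was lower in the tumors of M24 and M48 (-0.18 and -0.17) and higher in those of M50 and M60 (0.59 and 0.63). The scavenger receptor Msr1 differed by 0.43 (adjusted p = 0.0578, and 0.0172 without M24). Lyz2, the lysozyme gene of macrophages, differed by 0.57 (adjusted p = 0.0515, and 0.0439 without M24), and its neighbour and near copy Lyz1 by 0.27 (adjusted p = 0.277). Signal shared between the probes of the lysozyme pair cannot be told apart. Ms4a7, a membrane protein of macrophages, was not tested because its mean lay under 4.597. Its levels were 4.10, 4.83, 3.56 and 3.39 in adjacent livers and 5.31, 5.46, 4.67 and 4.40 in tumors, higher in each pair by 0.63 to 1.21, and with no filter on low values its adjusted p was 0.00173.

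In all, 11 of the 13 common genes that were tested and did not pass had an adjusted p under 0.1. The share of all tested genes at that looser level was not counted, so the 11 cannot be set against it. The count of 6 that rose depended on the mice used. It was 11 without M24, 7 without M48, and 3 without M50, without M60 or with no replicate block. In the settings with 3, Cd68, Ly86 and Laptm5 no longer passed.

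The calgranulins did not rise with the other genes. S100a8 stood at 5.05, 6.00, 4.62 and 5.17 in adjacent livers and at 4.95, 5.04, 4.28 and 5.02 in tumors, a difference of -0.39 (SE 0.157, adjusted p = 0.108). S100a9 differed by -0.08 (SE 0.15, adjusted p = 0.735), and by 0.096 without M48. Both proteins are abundant in neutrophils and inflammatory monocytes, and the adjacent liver of M48 had the highest level of each. Of 10 neutrophil markers 0 were tested, since the mean of each lay under 4.597. The ubiquitous haem oxygenase Hmox2 differed by -0.11 (adjusted p = 0.328), and Il18bp, which binds the cytokine IL-18, by 0.17 (adjusted p = 0.342).

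**Figure D4:**
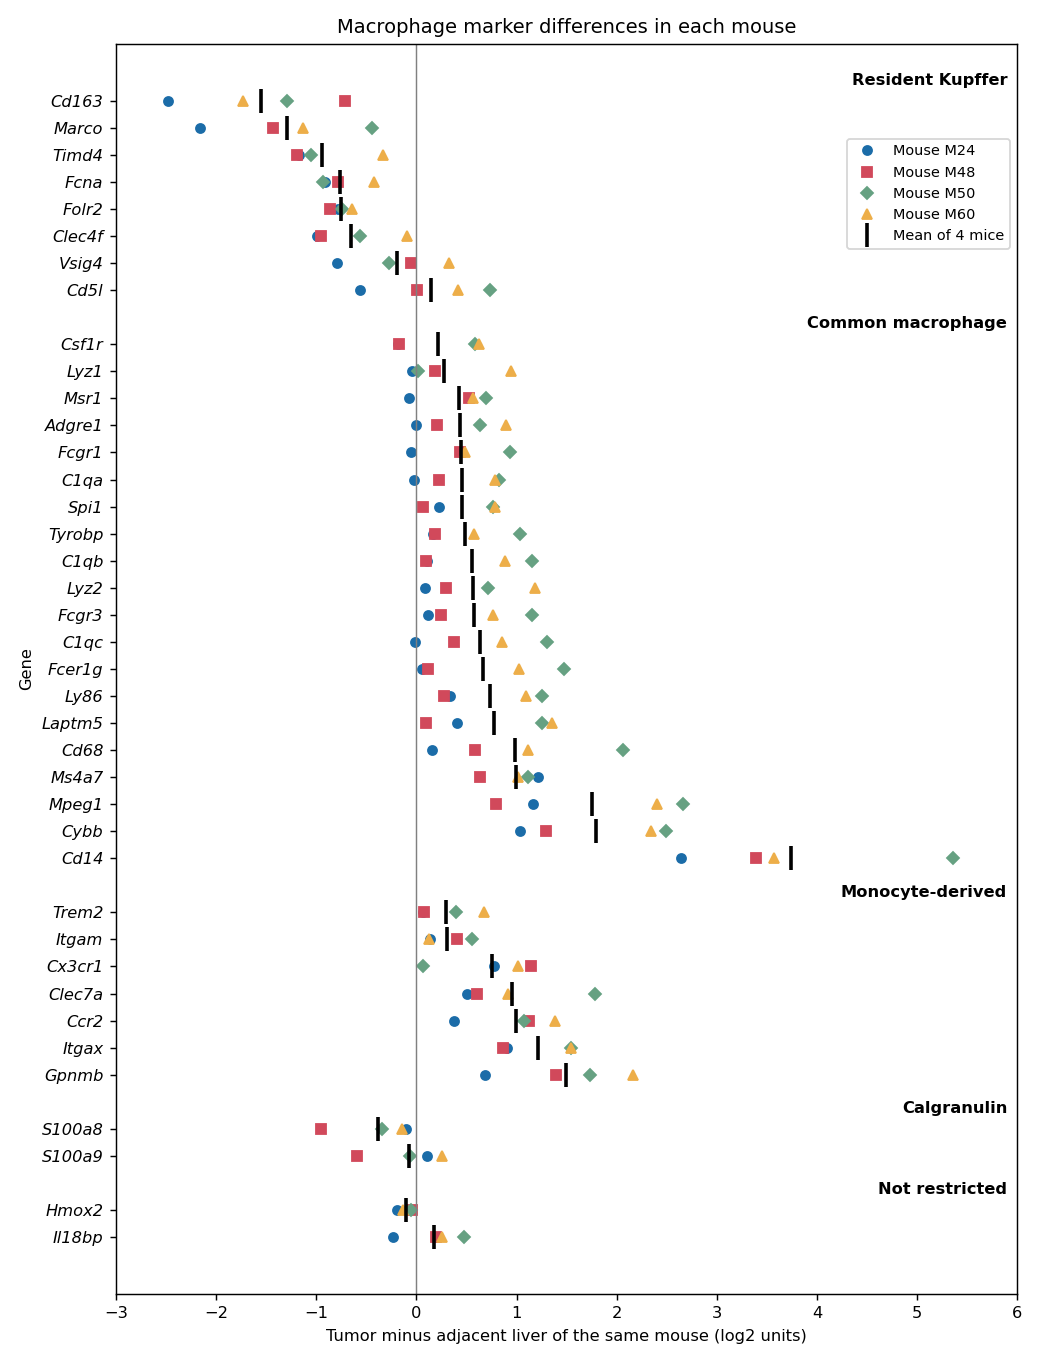
Tumor minus adjacent liver (log2 units) of the 39 measured members in each mouse, with the mean of 4 mice as a vertical bar. The 6 resident genes that fell lie left of 0 in all mice and the monocyte-derived genes right of 0. Most of the common genes lie close to 0 in M24 and M48 and higher in M50 and M60, but Ms4a7 is highest in M24. Mpeg1, Cybb and Cd14 lie farthest to the right.

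Set side by side, resident and monocyte-derived genes differed in direction in each of the mice. The median difference of the resident genes was -0.96 for M24, -0.82 for M48, -0.65 for M50 and -0.38 for M60. That of the monocyte-derived genes was 0.50, 0.86, 1.08 and 1.02. The resident median lay below the monocyte-derived one by 1.46, 1.69, 1.73 and 1.40 in that order, so the distance was alike in mice in which the common genes were not. The medians of the common genes were 0.11, 0.26, 1.13 and 0.91. The genes of each group were chosen by name with earlier results of these data known, and no test was made over them.

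**Figure D5:**
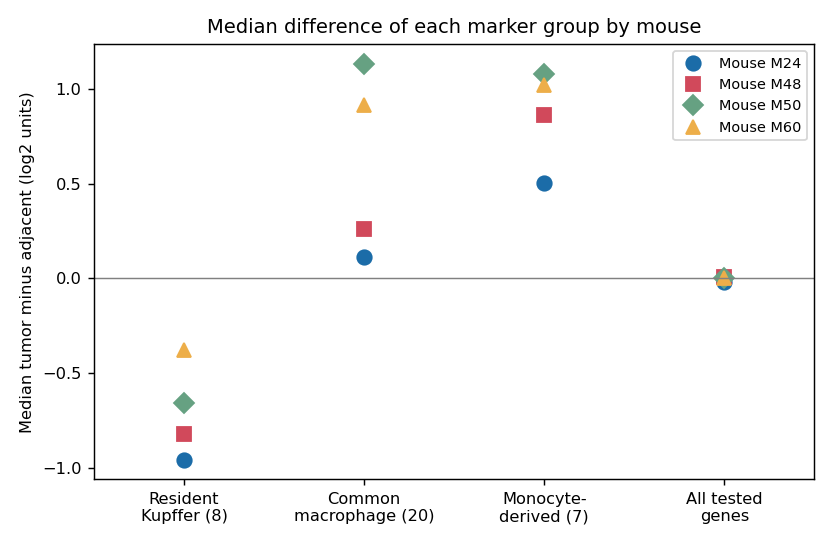
Median tumor minus adjacent difference (log2 units) of the resident, common and monocyte-derived genes and of all tested genes, with 1 point per mouse. The resident medians lie from -0.96 to -0.38 and the monocyte-derived ones from 0.50 to 1.08, the common genes split M24 and M48 from M50 and M60, and all tested genes lie at 0.

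The levels were also set against C1q on the same array. The mean of the 3 C1q chains differed by 0.02 and 0.23 in M24 and M48 and by 1.10 and 0.84 in M50 and M60. Relative to it, all 8 resident genes were lower in all 4 mice, with a median of -1.31 and a range from -2.10 for Cd163 to -0.40 for Cd5l. Vsig4, which did not pass on its own, stood at -0.75. This is not particular to the resident genes, since C1q itself was higher by 0.55 on average and a gene that stays level comes out lower: S100a8 (-0.93), Hmox2 (-0.66) and Il18bp (-0.37) were also lower relative to C1q in all 4 mice. Of the 7 monocyte-derived genes Gpnmb (0.95), Itgax (0.67) and Clec7a (0.40) were higher relative to C1q in all mice. Ccr2 (0.44) and Cx3cr1 (0.20) were higher in 3 mice but not in M50, where the values were -0.018 and -1.027. Itgam (-0.24) and Trem2 (-0.25) were lower on average. Among common genes Cd14 (3.19), Cybb (1.24) and Mpeg1 (1.21) kept large positive values, and Csf1r was lower relative to C1q in all 4 mice (-0.33). A ratio within an array shows unequal change of its parts and does not say which of them moved.

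Genes that set or share the Kupffer cell identity did not follow the resident markers as a group. Of 13 tested genes 1 rose and 3 fell, with a median of -0.05. The shares of all tested genes to set beside this list and those below are 16.3% that rose and 15.7% that fell. Id3, a regulator that Kupffer cells need to form, fell by 1.10 (SE 0.146, adjusted p = 0.00272), Il18 fell by 0.63 and the complement component C6 by 1.08, whereas Id1 rose by 0.81. Id1, Id3 and C6 are also expressed by other liver cells.

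Ligands that draw and feed macrophages rose in part. Of 8 tested growth factors and chemoattractants 5 rose and 1 fell. Il34, a ligand of Csf1r, rose by 0.63 (SE 0.0957, adjusted p = 0.00412), while the other ligand of that receptor, Csf1, differed by 0.08 (adjusted p = 0.613). The Ccr2 ligands Ccl2 and Ccl7 rose by 0.60 and 0.37 (adjusted p = 0.0465 and 0.02485), with Ccl2 lower by 0.08 in M24 and higher in the others. Their adjacent means, 4.496 and 4.419, lay under 4.597, so the sizes of these rises are uncertain. Ccl5 rose by 1.25 (adjusted p = 0.0287), from 0.19 in M48 to 2.49 in M60. Cxcl12, which holds cells that carry Cxcr4, fell by 1.35 (adjusted p = 0.00223).

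Partners of the adaptor proteins and of C1q were measured as well. Of 8 tested genes of ITAM signalling 3 rose and 0 fell, with Blnk at 2.40 (adjusted p = 0.00184), Fgr at 0.39 and the phosphatase Ptpn6 at 0.33. In the list of C1 partners, receptors and regulators 2 of 9 rose and 3 fell. The receptors for the fragments C3a and C5a, C3ar1 and C5ar1, which myeloid cells carry, rose by 0.79 and 0.44 (adjusted p = 0.02375 and 0.0219). The mostly hepatocyte-made C1ra and C4b fell by 0.54 and 0.51 and have near copies in the genome with which their probes may share signal.

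Other genes of lipid-associated macrophages rose in 7 of 10 cases and fell in 0. The tetraspanins Cd63 and Cd9 rose by 3.41 and 1.33, Lpl by 2.66 and the fatty acid binding protein Fabp5 by 2.68. These genes are also expressed by cells other than macrophages, and their part in Gpnmb was not tested.

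Markers of other cells that the pieces could hold moved beside the macrophage genes. Of 8 markers of all leukocytes 4 rose and 0 fell, namely Coro1a (0.93), Cd48 (0.85), Cd52 (0.91) and Cd53 (0.84). Ptprc (CD45) differed by 0.89 (adjusted p = 0.0544), and Lcp1 went the other way by -0.26 (adjusted p = 0.11). The medians of the 8 per mouse were 0.18 and 0.22 for M24 and M48 against 1.48 and 1.26 for M50 and M60. The common genes were likewise less different between tissues in M24 and M48. The mean level of the 8 ran from 6.44 to 7.99 in adjacent livers and from 7.45 to 8.23 in tumors. Of 9 markers of sinusoidal or general endothelium 6 rose and 0 fell, among them Kdr (0.64), Stab1 (0.60), Lyve1 (1.49) and Pecam1 (1.02). Those that did not pass include Stab2 (0.29, adjusted p = 0.1015) and Clec4g (-0.10, adjusted p = 0.571). The mean level of the 9 ran from 7.42 to 7.68 in adjacent livers and from 7.99 to 8.47 in tumors. Of the markers of blood monocytes, Ace and Plac8 rose by 0.68 and 0.54 among 4 tested. The adjacent mean of Ace, 4.556, lay under 4.597, so the size of its rise is uncertain.

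No marker passed among 5 tested of dendritic cells, 5 of T cells, 3 of B cells and 1 of NK cells. By limma 5 of these 14 had an unadjusted p under 0.05. At least the 31.9% of all tested genes that passed after adjustment are under that level too, so the 5 do not stand out. Of the 5, Cd3g, Cd8a, Irf8 and Prf1 were higher on average and Clec9a was lower (-0.56). T cell markers had a median of 1.01 in M60 and of -0.03 to 0.26 in the other mice. The neutrophil markers had mean levels of 3.68 to 4.25 in adjacent livers and 3.78 to 4.09 in tumors. The part of these other cells in the differences of Itgam, Itgax, Ccr2 and the all-myeloid genes was not tested.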

How the data were processed

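RNA of 8 liver pieces was measured on 1-colour arrays, 1 array per piece. The authors deposited log2 expression values for 28874 probes, which ran from 1.92 to 14.5 with array medians of 4.89 to 5.01; per the submitters' processing notes MAS5 was used. How background was corrected and arrays were scaled before deposit was not given in the sources used here. Scanner files were not analysed here, so signal over background is unknown, and precision is limited by there being 4 pairs of arrays.

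Of 23410 annotated probes 21789 had a single gene symbol and 1621 several, which were not used; the rest stayed unnamed. The platform's symbols were checked against RefSeq and 0 changed. Among 19938 genes the lowest 40% by mean over the 8 arrays (under 4.597) were left out, and 11963 were fitted with limma 3.58.1 (R 4.3.3; lmFit, then eBayes with trend) with the mouse as a block (3 residual and 3.64 prior degrees of freedom), two-sided, with Benjamini-Hochberg adjustment and a threshold of 0.05. The mouse is the block because both pieces came from the same animal. The paired pieces' deviations from the tissue means correlated over tested genes at 0.313 (M24), 0.421 (M48), 0.0986 (M50) and 0.111 (M60). The fit was tested on simulated data.

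The members and the gene lists were chosen with earlier results of these data known. Named outside the members are up to 4 genes of each list with the smallest p, with Ptprc, Lcp1, Csf1, Ccl2, Alb, Stab2 and Clec4g. Start regions are RefSeq sequences of GRCm38.p6. The alternatives were no block, 2 other scalings, 2 other filters, the mean of a gene's probes, no trend, and each mouse left out.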

Additional observations from a re-analysis of the deposited data

Results flagged for a closer look

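In 8 of 78 groups of 4 arrays (39 members in 2 tissues) 1 array lay far from the other 3, with a gap to the nearest of them, relative to the whole range, above Dixon's critical value; chance gives this in about 1 in 20 groups. All 8 were tumors, and 7 were the tumor of M48, which had the highest level. The 78 groups share the same 8 arrays, and M48 was the highest tumor for 36 of the 39 members. The groups are therefore not independent, and the rate of 1 in 20 is no scale for the count of 8.

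For the complement and scavenger genes these levels were 10.7 for Cd5l (the other tumors 8.85 to 9.04), 10.09 for C1qa (9.085 to 9.15), 9.77 for C1qb (8.78 to 8.89) and 8.62 for Msr1 (7.35 to 7.55). The receptor partners Ly86 and Tyrobp stood at 8.86 (7.88 to 7.985) and 8.06 (7.06 to 7.22), and the integrin Itgam at 6.78 (5.35 to 5.43). M48 was also the highest of the adjacent livers for all 7 genes. The tumor of M50 had the lowest S100a8, 4.28, against 4.95 to 5.04 in the other tumors, and lay under the value of 4.597 below which genes were left out.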

How the results depend on the processing

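Over 11 alternative settings the 39 measured members gave 418 differences, of which 378 kept direction and side of the threshold (or direction alone for Ms4a7, which is outside the main test), 26 lost the call, 12 gained one and 2 changed direction. The last were of genes that did not pass in either setting: leaving out 1 mouse, Cd5l ranged from -0.049 (without M50) to 0.386 and S100a9 from -0.186 to 0.096 (without M48). With no replicate block, that is without pairing tumor and liver by mouse, 6 members rose and 1 fell in place of 11 and 6. The resident genes that fell were then 1, the common genes that rose 3 and the monocyte-derived ones 3. With the lowest 60% of genes left out, 10 of 17 common genes and 2 of 2 monocyte-derived genes still tested rose. With 1 mouse left out at a time, members that rose ranged from 6 to 15, common genes from 3 to 11, monocyte-derived genes from 3 to 5, and all genes from 1238 to 1759 higher and from 1071 to 1720 lower. These fits have fewer pairs, and members that rose were 15 without M24 but 6 without M60. Why the counts differ was not tested, and the mice whose absence changed a call are given beside each gene. Quantile normalization, centring of arrays and eBayes without trend left the member counts at 11 higher and 6 lower. So did averaging probes, but each member has 1 probe, so its difference could not change there. With no block, another filter or no trend the difference of a member is also the same by design, and only its call could change. The absence of a filter on low values left the same counts, with Cd68 lost (adjusted p = 0.05005) and Ms4a7 gained (0.00173). Cd14, Cybb, Mpeg1 and Gpnmb passed in all 11 settings, Cd163 and Itgax in the 10 in which they were tested. With 4 pairs, differences near 0.5 often missed the threshold, and low signals of Cd14, Ccr2, Cd163 and Ms4a7 in some arrays make their differences less certain.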
